A study of Homo sapiens with 18 samples.

Results

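The genes described here lie on the short arm of human chromosome 18 (18p), and their levels were read in the human breast cancer cell line ZR-75-1, which is luminal and positive for the estrogen receptor. Members are 53 listed gene symbols whose annotated start on GRCh37 (hg19) lies below 17 Mb of chromosome 18, of 60252 gene IDs in each count file. The list was chosen by its knockdown against control values: genes of this arm were seen to sit lower in the knockdown line in an earlier look at these files. Differences between the lines are therefore given below as descriptions without a test. Of the 53 members, 43 passed the low-count filter, which kept 21285 genes in all.

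The study asked what ADAR, which edits adenosine to inosine within double-stranded RNA, does for transcriptome stability. A control line (named SHC in the labels) and an ADAR knockdown line were each left untreated, given DMSO as vehicle (100 nM in the labels), or given 100 nM triptolide, all for 16 h in medium with low serum. Triptolide blocks transcription by RNA polymerase II through the XPB subunit of TFIIH, so transcripts with a short life fall first. Each of the 6 groups held 3 libraries of stranded total RNA, labelled biological replicates 1 to 3. How the knockdown was made, and whether either line came from 1 clone, is not given in the sources used here, and DNA was not measured. Any other difference between the lines cannot be told apart from the knockdown. Where nothing says that replicates were separate cultures, p-values measure only the spread between these libraries.

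A chromosome arm is a unit of position and not of function. Its genes share a DNA molecule and its copy number, but are read from their own promoters and serve unrelated roles. Cancer lines often gain or lose whole arms or parts of them. The members include kinetochore and centrosome proteins (NDC80, CEP76, CEP192), myosin light chains (MYL12A, MYL12B), small GTPases of membrane traffic (RAB12, RAB31), a tyrosine kinase of the SRC family (YES1), a chromatin protein of the inactive X chromosome (SMCHD1) and enzymes of the mitochondrion. Neighbouring genes can share a promoter, and some overlap on opposite strands.

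Gene counts per library ranged from 26709657 to 35674502, and mitochondrial ribosomal RNA took 20.2 to 37.1% of them without triptolide and 42.7 to 55.2% with it. ADAR was lower in the knockdown library of 9 of 9 same-numbered pairs, at 31.2 to 77.5% of its control. All 10 markers of luminal cells averaged at least 1 CPM (counts relative to the scaled library total), led by KRT8 at 2732 CPM. Of the other lists, 2 of 5 basal, 1 of 5 leukocyte, 1 of 5 stromal and 1 of 3 matched endothelial markers reached it, the highest being COL1A1 at 15.6 CPM. In bulk RNA, fewer cells of a type and less RNA per cell cannot be told apart.

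Levels below are CPM after TMM scaling of the library totals, and the 3 values of a group are always in the order of replicates 1, 2 and 3. Differences between lines are log2(CPM + 0.5) of a knockdown library minus that of the control library with the same treatment and number, which gives 9 pairs. They come from 3 replicate numbers in 3 treatments of the same lines, and same-numbered libraries vary together. The 9 pairs are therefore not independent comparisons. Log2 changes with a standard error (SE) come from the edgeR quasi-likelihood fit, and a call is a Benjamini-Hochberg adjusted p below 0.05 over all 21285 genes. Members differed widely in level. Per kilobase of exon, MYL12B was highest at 256.4 CPM, followed by YES1 at 38.2 and MYL12A at 30.7 CPM, and NDC80 stood at 13.1 CPM. LDLRAD4, at 0.068 CPM per kilobase, and COLEC12, at 0.066, were the lowest of those kept. The 10 members that failed the filter were nearly silent: CETN1, ADCYAP1, EMILIN2, L3MBTL4, LAMA1, PTPRM, TXNDC2, PIEZO2 and CIDEA held 4 to 35 counts each over the 18 libraries. LPIN2, a phosphatidate phosphatase, had 0 counts in all 18 libraries, which allows up to 0.0841 to 0.112 CPM in a library for counting error only. Its relatives LPIN1 and LPIN3 were read at 2.11 and 6.18 CPM per kilobase. Whether the counting step dropped LPIN2 was not tested.

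Lower levels in the knockdown line ran along most of the arm. Of the 43 members kept, 30 were lower in the knockdown library of 9 of 9 pairs, and 0 were higher in 9 of 9. Over all genes tested, 1.93% were lower in 9 of 9 pairs, and 402 of 21285 were higher in 9 of 9. Both are printed for scale only, since this contrast chose the members. The median over members was -0.49 in untreated cells, -0.38 in DMSO and -0.53 in triptolide, where the medians over all genes were -0.02, -0.01 and -0.04. By pair, the member median ran from -0.28 to -0.58. The 206 genes of the long arm had medians of -0.03, 0.06 and -0.07 in the same treatments.

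**Figure D1:**
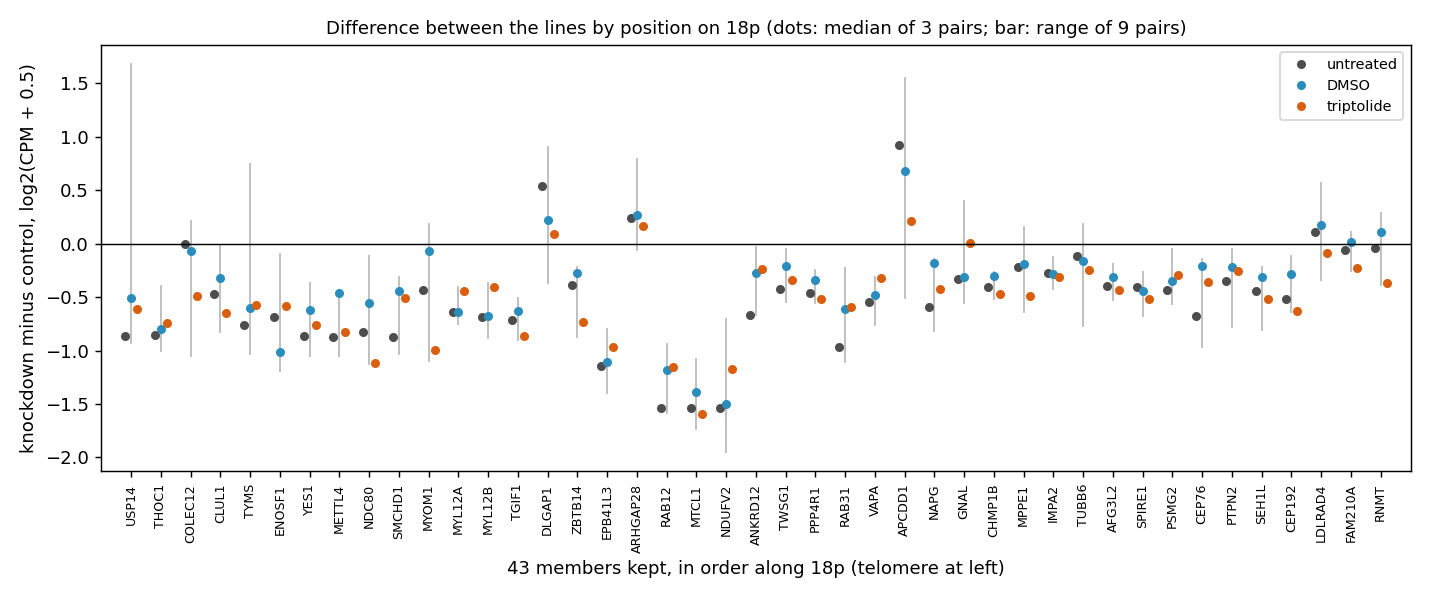
Each of the 43 members kept is drawn in its order along 18p, with the knockdown minus control difference in log2(CPM + 0.5) on the vertical axis; dots are medians of 3 pairs per treatment and grey bars the range of 9 pairs. MTCL1, NDUFV2, RAB12 and EPB41L3 sit lowest in the middle of the arm, and LDLRAD4, FAM210A and RNMT at the right end lie near 0.

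The size of the difference followed position in stretches whose borders were set after the values were seen, so they are descriptions. In the outer stretch, from USP14 to DLGAP1, the 13 members of at least 1 CPM had a median of -0.65, or 63.7% of control, and 10 of them were lower in 9 of 9 pairs. The next stretch, from ZBTB14 to NDUFV2, was lowest, with a median of -1.196 over 6 members, or 43.6% of control. Of these 6, 5 were lower in 9 of 9 pairs, and they spread from -1.54 for MTCL1 over -0.56 for ZBTB14 to 0.24 for ARHGAP28. The other gene of at least 1 CPM there stood at 0.13. From ANKRD12 to CEP192 the median of 18 members was -0.39, or 76.3% of control, and 15 were lower in 9 of 9 pairs. The last 3 members before the centromere, LDLRAD4, FAM210A and RNMT, had a median of -0.04, or 97.3% of control, and 0 of 3 were lower in every pair. Across the 40 members of at least 1 CPM, the difference and the start position had a Pearson correlation of 0.33 and a Spearman correlation of 0.59, a description across genes that share the same libraries.

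Knockdown untreated replicate 1 stood apart for both USP14, a deubiquitinating enzyme of the proteasome, and TYMS. USP14 read 79.2, 15.1 and 22.6 CPM in the untreated knockdown libraries and 24.3, 29.1 and 41.5 CPM in the control libraries. In DMSO the same gene read 21.0, 17.3 and 22.5 against 26.7, 26.9 and 32.2 CPM, and in triptolide 15.7, 20.6 and 32.7 against 24.2, 34.5 and 43.7 CPM. Its knockdown level was thus above control in 1 of 9 pairs. Without the untreated pair of replicate 1, an alternative added after these values were seen, 32 members were lower in every remaining pair and the median of the outer stretch was -0.66. The share of all genes lower in every remaining pair was not worked out, so this count has no scale.

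Other genes of the arm were not on the list, but the arm itself was noticed in this same contrast, so they are described only. Of 20 other 18p genes of at least 1 CPM, 11 were lower in 9 of 9 pairs and 0 were higher in 9 of 9, with a median of -0.45. Over all genes of at least 1 CPM, 2.37% were lower in 9 of 9 pairs. Of all 51 other 18p genes tested, 15 (29.4%) were lower in 9 of 9 and 0 were higher in 9 of 9, with a median of -0.31. The long noncoding RNAs ENSG00000266602 and LINC00470 differed by -0.75 and -0.54, and LINC00667, which starts just before ZBTB14, by -1.34. ZNF519 differed by -0.17 and was lower in 6 of 9 pairs. At the 17 Mb limit of the list, the last gene tested inside was the pseudogene ANKRD20A5P, at 0.42, and the first outside was ROCK1, at -0.11.

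**Figure D2:**
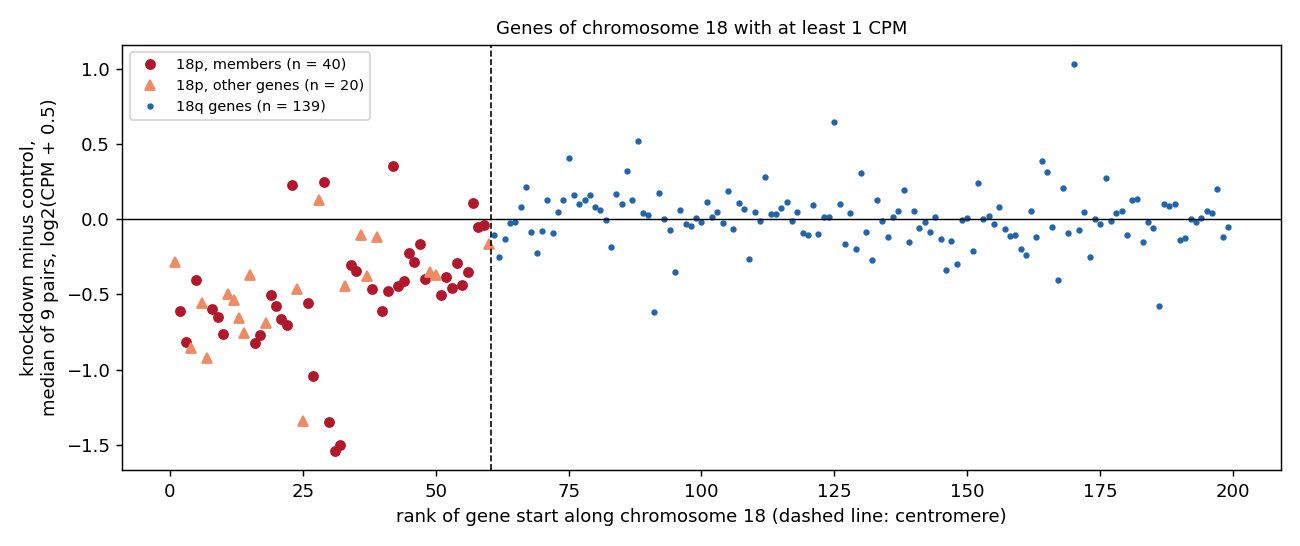
The 199 genes of chromosome 18 with at least 1 CPM are ranked by start on the horizontal axis, with the median knockdown minus control difference over 9 pairs, in log2(CPM + 0.5), on the vertical axis. Most of the 60 genes left of the centromere lie below 0, while the 139 genes of 18q scatter around 0.0058, their median.

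Among 41 chromosome arms, 18p had the lowest median over 9 pairs, -0.46 over 60 genes of at least 1 CPM, of which 68.3% were lower in every pair. The next arm was 5p, at -0.27 over 121 genes, of which 37.2% were lower in every pair. The 39 other arms lay between -0.04 and 0.04. The arm 18p was chosen by this same contrast, so its rank is a description and no support. The order holds for the medians only and was not tested.

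**Figure D3:**
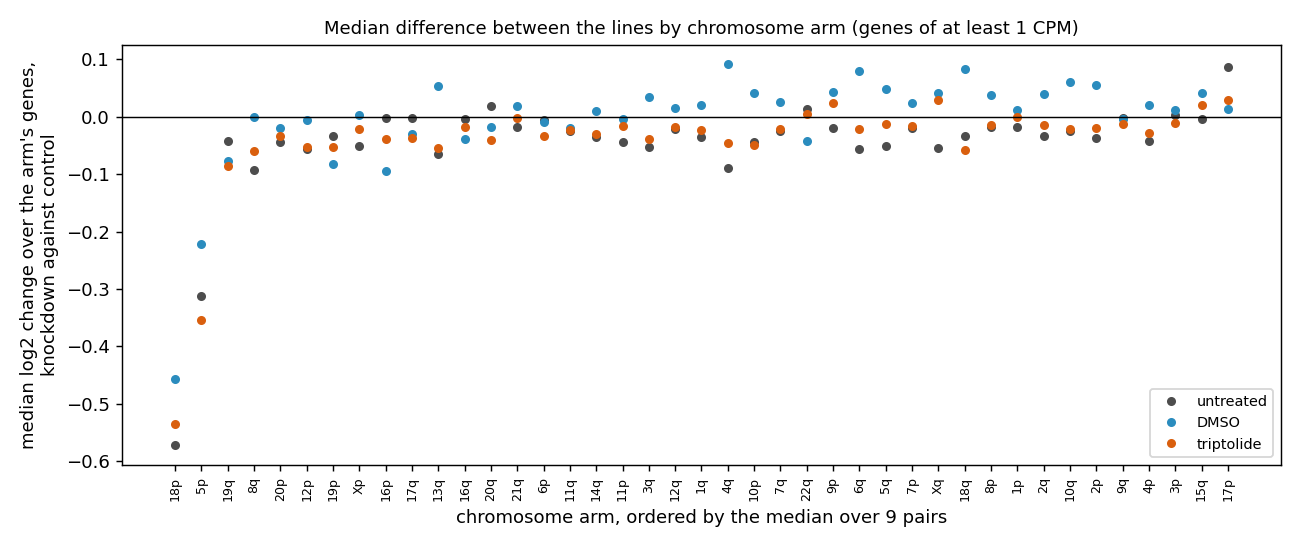
Chromosome arms are ordered by their median over 9 pairs, with the median log2 change of knockdown against control in each treatment on the vertical axis, for genes of at least 1 CPM. The arm 18p lies lowest in all 3 treatments, between -0.46 and -0.57, followed by 5p between -0.22 and -0.35. This contrast chose 18p, so its place is a description.

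Cytoskeletal members held the lowest median pair difference of the arm. Of 7 listed, 7 were kept and 5 were lower in 9 of 9 pairs, with a median of -0.58. MTCL1, a microtubule crosslinking factor, read 35.3, 18.7 and 34.3 CPM in untreated control cells and 11.3, 8.56 and 11.5 CPM in untreated knockdown cells. In DMSO it read 29.8, 24.9 and 35.1 against 9.70, 9.20 and 14.5 CPM, and in triptolide 7.92, 8.57 and 6.51 against 2.03, 2.67 and 1.82 CPM. The lines did not overlap in any treatment. With 0.5 CPM added, the median pair put the knockdown at 34.4% of control, the lowest share of any member, beside 35.3% for NDUFV2. The added 0.5 CPM weighs more on weak genes such as NDUFV2. In the edgeR fit NDUFV2 changed by -2.03, -1.44 and -1.69 in untreated cells, DMSO and triptolide. MTCL1 changed by -1.49, -1.43 and -1.82, so which of them is lowest depends on the scale and treatment.

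EPB41L3, a membrane skeleton protein of the 4.1 family, read 67.4, 123 and 77.3 CPM in untreated control and 25.3, 61.3 and 34.7 CPM in untreated knockdown cells. In DMSO the values were 65.7, 108 and 79.3 against 30.3, 61.1 and 35.9 CPM, and in triptolide 76.4, 103 and 103 against 43.8, 49.6 and 52.3 CPM. Replicate 2 was highest in both untreated and DMSO groups of each line, and the 3 knockdown libraries lay below the 3 control libraries in each treatment. ARHGAP28, a GTPase-activating protein between EPB41L3 and RAB12, went the other way in most pairs. It read 1.07, 3.70 and 1.41 against 2.23, 3.52 and 1.76 CPM untreated, 1.41, 2.63 and 1.26 against 1.56, 3.59 and 1.62 CPM in DMSO and 1.31, 2.90 and 1.503 against 1.53, 3.23 and 1.97 CPM in triptolide, control first. Its groups overlapped in each treatment, and its median difference was 0.24 with 1 of 9 pairs lower.

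The regulatory light chains of non-muscle myosin, MYL12A and MYL12B, are near-identical neighbours, so reads may have been split between them and their separate values are uncertain. MYL12A read 75.3, 97.0 and 92.8 CPM in untreated control and 44.5, 62.3 and 67.8 CPM in untreated knockdown cells, 68.3, 89.6 and 104 against 43.6, 59.9 and 62.0 CPM in DMSO and 128, 165 and 177 against 96.9, 122 and 121 CPM in triptolide. MYL12B read 381, 497 and 487 against 206, 314 and 303 CPM untreated, 407, 479.7 and 465 against 263, 299.8 and 289 CPM in DMSO and 638, 725 and 735 against 496, 549 and 486 CPM in triptolide. For both genes the lines did not overlap in any treatment, at 67.1% and 63.1% of control in the median pair. SPIRE1, an actin nucleator, differed by -0.50, lower in 9 of 9 pairs, and the beta tubulin TUBB6 by -0.16, lower in 7 of 9.

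Signalling and trafficking members were the largest group, 10 of 10 kept and 8 lower in 9 of 9 pairs, with a median of -0.45. RAB12, a small GTPase of membrane traffic, read 28.4, 47.8 and 48.0 CPM in untreated control and 10.8, 15.6 and 16.1 CPM in untreated knockdown cells. In DMSO it read 25.3, 45.3 and 49.3 against 13.0, 19.7 and 17.1 CPM, and in triptolide 17.1, 27.2 and 30.9 against 8.29, 11.9 and 11.3 CPM. All knockdown libraries lay below all control libraries of their treatment, with 39.2% of control in the median pair. YES1, a SRC family kinase, read 192, 292 and 276 CPM in untreated control and 105, 149 and 152 CPM in untreated knockdown cells. In DMSO the values were 189, 248 and 245 against 146, 159 and 159.8 CPM, and in triptolide 199, 289 and 278 against 127, 139 and 163 CPM. Here too the lines stayed apart in each treatment. RAB31 differed by -0.61, VAPA, a contact site protein of the endoplasmic reticulum, by -0.48, PPP4R1, a regulatory subunit of protein phosphatase 4, by -0.46, NAPG, a SNAP protein of membrane fusion, by -0.45, CHMP1B of ESCRT-III by -0.41 and the phosphatase PTPN2 by -0.29. Each of these 6 was lower in 9 of 9 pairs. GNAL and MPPE1, which overlap on opposite strands, were lower in 6 and 8 of 9 pairs.

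**Figure D4:**
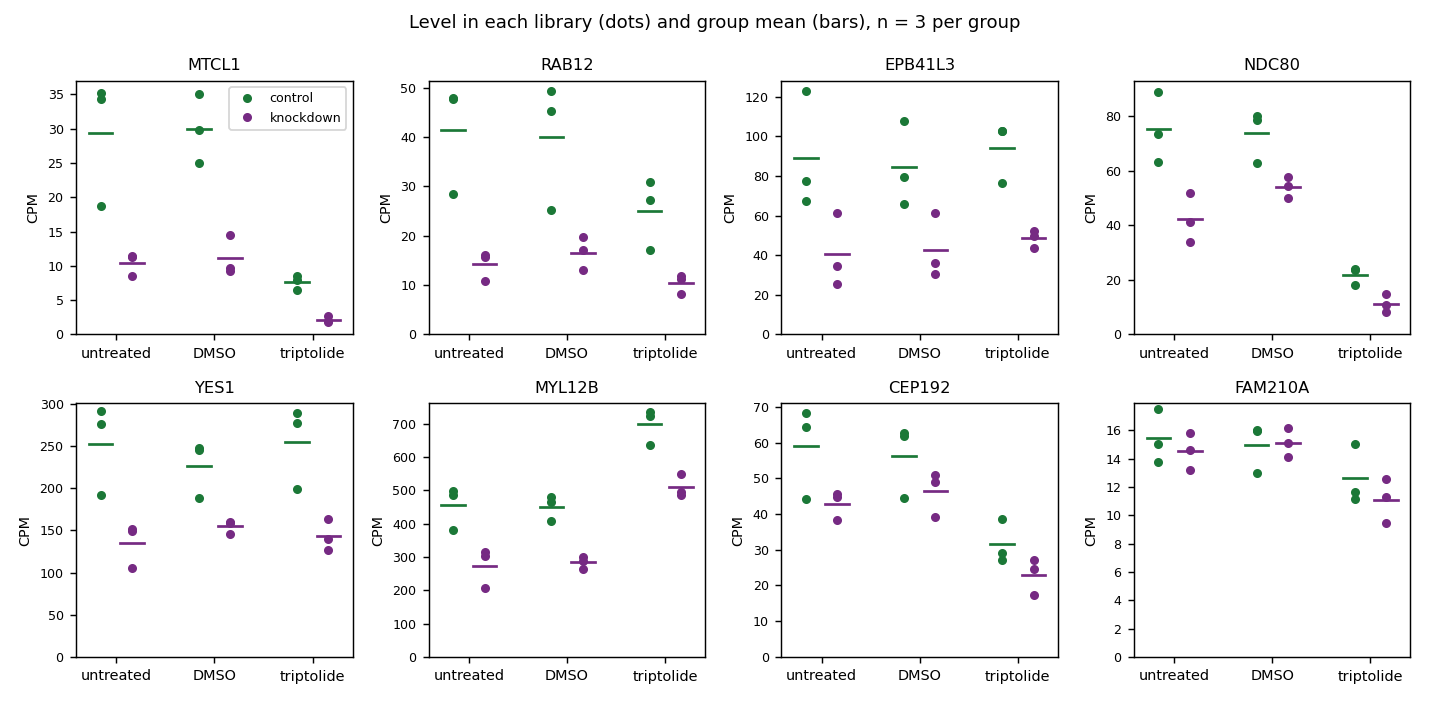
CPM of 8 members in each library (dots, n = 3 per group) and as group means (bars), control in green and knockdown in purple, for each treatment. MTCL1, RAB12, NDC80, YES1, EPB41L3 and MYL12B do not overlap between the lines in any treatment, while FAM210A overlaps in each.

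Members that act on RNA and chromatin gave 6 of 7 kept genes lower in 9 of 9 pairs, with a median of -0.56. THOC1, a subunit of the THO complex of mRNA export, read 56.4, 73.6 and 87.7 CPM in untreated control and 30.1, 40.6 and 49.5 CPM in untreated knockdown cells. In DMSO it read 63.9, 79.5 and 84.6 against 48.6, 45.6 and 46.3 CPM, and in triptolide 22.7, 36.9 and 37.1 against 16.7, 18.1 and 22.0 CPM. The lines did not overlap in any treatment. SMCHD1 read 174, 265 and 256 against 124, 137 and 139.8 CPM untreated, 189, 235 and 237 against 145, 141 and 174 CPM in DMSO and 59.2, 84.0 and 96.8 against 41.6, 40.7 and 78.1 CPM in triptolide, control first. Its lines overlapped only in triptolide, where knockdown replicate 3 lay among the control libraries. TGIF1, a homeodomain repressor of TGF-beta signalling, differed by -0.70, ZBTB14, a zinc finger factor, by -0.56 and ANKRD12, a nuclear ankyrin repeat protein, by -0.31. RNMT, the mRNA cap methyltransferase and the member closest to the centromere, differed by -0.04 and was lower in 6 of 9 pairs.

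The 4 cell division members were all lower in 9 of 9 pairs. NDC80, a kinetochore protein that binds microtubules, read 63.4, 73.5 and 88.9 CPM in untreated control and 33.9, 41.2 and 51.8 CPM in untreated knockdown cells. In DMSO it read 62.7, 80.0 and 78.6 against 57.8, 54.5 and 50.1 CPM, and in triptolide 18.2, 23.9 and 23.7 against 8.06, 10.8 and 14.7 CPM. METTL4, an adenine methyltransferase-like protein, starts next to NDC80 on the other strand. It read 21.5, 25.6 and 29.5 against 14.6, 13.7 and 15.7 CPM untreated, 21.4, 22.9 and 27.7 against 15.7, 16.5 and 15.4 CPM in DMSO and 2.96, 4.11 and 4.06 against 1.71, 1.73 and 2.07 CPM in triptolide, control first. In neither gene did the lines overlap in any treatment, and the median differences were close, at -0.77 for NDC80 and -0.82 for METTL4. CEP76, a centrosomal protein, differed by -0.46, SEH1L, a nucleoporin of the Y complex, by -0.44 and the centrosomal scaffold CEP192 by -0.35.

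NDC80 and METTL4 start head to head. Their promoter windows are shown with a window of MTCL1, lowest by median pair difference, and that of FAM210A, which hardly differed. Each window runs from 250 bases before to 50 after an annotated start (RefSeq, GRCh38.p14, 300 bases, strand of the gene), and 49 of the 53 members, 40 of the 43 kept, had at least 1 window. Capitals mark matches on either strand to CCAAT (the CCAAT box), TTTGAA (the cell cycle homology region), CCGGAAG (an ETS site), GCGCATGC (part of an NRF1 site) and TATAAA (the box bound by TBP). The windows of NDC80, chr18:2571307-2571606 on the plus strand, and METTL4, chr18:2571456-2571755 on the minus strand, share 151 bases. The MTCL1 window shown is at chr18:8705306-8705605 on the plus strand and that of FAM210A at chr18:13726509-13726808 on the minus strand. MTCL1 has another window, at chr18:8707283-8707582, which is not printed.
NDC80: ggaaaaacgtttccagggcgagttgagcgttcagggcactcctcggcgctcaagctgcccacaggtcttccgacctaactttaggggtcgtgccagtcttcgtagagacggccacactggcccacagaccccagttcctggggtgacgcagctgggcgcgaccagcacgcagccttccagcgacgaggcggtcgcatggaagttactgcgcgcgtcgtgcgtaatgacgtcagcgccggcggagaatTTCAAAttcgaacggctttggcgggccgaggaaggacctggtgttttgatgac
METTL4: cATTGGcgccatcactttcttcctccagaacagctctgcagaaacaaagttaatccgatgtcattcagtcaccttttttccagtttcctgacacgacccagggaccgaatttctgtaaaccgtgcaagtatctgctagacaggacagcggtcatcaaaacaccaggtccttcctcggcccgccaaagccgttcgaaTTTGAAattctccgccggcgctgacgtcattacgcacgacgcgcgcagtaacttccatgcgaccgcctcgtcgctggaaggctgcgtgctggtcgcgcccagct
MTCL1: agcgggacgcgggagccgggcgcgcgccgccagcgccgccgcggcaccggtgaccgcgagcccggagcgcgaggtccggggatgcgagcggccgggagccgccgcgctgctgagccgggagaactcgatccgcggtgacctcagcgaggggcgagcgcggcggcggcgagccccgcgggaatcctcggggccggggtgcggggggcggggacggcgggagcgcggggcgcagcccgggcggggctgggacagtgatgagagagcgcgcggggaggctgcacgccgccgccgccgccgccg
FAM210A: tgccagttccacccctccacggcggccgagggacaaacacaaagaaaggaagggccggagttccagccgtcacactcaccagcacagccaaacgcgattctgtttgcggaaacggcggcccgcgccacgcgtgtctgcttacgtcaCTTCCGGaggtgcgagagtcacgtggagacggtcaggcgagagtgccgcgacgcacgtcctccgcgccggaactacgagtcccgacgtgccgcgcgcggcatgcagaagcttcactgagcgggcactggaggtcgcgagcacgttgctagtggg
The TTTGAA match of NDC80 and METTL4 is 1 stretch of the shared bases read from both strands. It began at base -3 of the NDC80 window and base -54 of the METTL4 window, counted from the annotated starts. The MTCL1 window shown held none of the 5 motifs and was 83% G or C, and the FAM210A window held 1 ETS match. The other MTCL1 window also held none and was 60.3% G or C. Of the 88 windows of members, 20.5% held TTTGAA and 20.5% CCAAT, against 15.2% and 34.6% of all 35116 windows. CCGGAAG was in 9.09% against 10.3%, TATAAA in 7.95% against 11.5% and GCGCATGC in 4.55% against 3.05%. Among members with a window, the other divergent pair with overlapping windows, PSMG2 and CEP76 with 236 shared bases, differed by -0.38 and -0.46. FAM210A also starts head to head with RNMT, which had no window, and these neighbours differed by -0.05 and -0.04.

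Metabolic and mitochondrial members were lower in 9 of 9 pairs for 4 of 6 kept genes, with a median of -0.50. NDUFV2, a subunit of respiratory complex I, read 4.57, 4.67 and 5.12 CPM in untreated control and 1.24, 1.30 and 0.957 CPM in untreated knockdown cells. In DMSO it read 5.19, 5.13 and 6.20 against 2.98, 1.49 and 1.59 CPM, and in triptolide 1.10, 1.89 and 2.51 against 0.405, 0.561 and 0.715 CPM. The lines did not overlap in any treatment. This level was low for the gene's length, 0.976 CPM per kilobase against 35.1 for NDUFV1, and 28.4% of its exon bases are also annotated to ENSG00000265257 on the same strand. The part of that overlap in the level was not tested.

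TYMS, thymidylate synthase, and ENOSF1, an enolase family enzyme, overlap on opposite strands, with 39.9% of the exon bases of TYMS annotated to ENOSF1 as well. Whether the counting used strand is not given in the sources used here, so reads of the pair may not be told apart. TYMS read 16.4, 23.5 and 28.1 against 27.9, 13.7 and 15.6 CPM untreated, 15.4, 24.6 and 20.4 against 11.6, 11.8 and 13.3 CPM in DMSO and 22.7, 22.1 and 35.3 against 15.0, 16.6 and 21.1 CPM in triptolide, control first. It was lower in 8 of 9 pairs, the exception being the untreated pair of replicate 1 described above. ENOSF1 read 67.9, 74.2 and 88.7 against 52.2, 45.8 and 42.3 CPM untreated, 73.7, 88.2 and 90.3 against 52.8, 43.4 and 39.2 CPM in DMSO and 46.6, 55.2 and 56.6 against 43.6, 36.8 and 35.8 CPM in triptolide. Its lines did not overlap in any treatment. AFG3L2, a mitochondrial protease, differed by -0.40 and the inositol monophosphatase IMPA2 by -0.29, both lower in 9 of 9 pairs, and FAM210A, a mitochondrial membrane protein, by -0.05. In protein turnover, PSMG2, a proteasome assembly chaperone, differed by -0.38 and was lower in 9 of 9 pairs.

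Cell surface and tissue-restricted members were mostly silent or weak. Of 8 cell surface and matrix members, 4 were kept and 1, the BMP modulator TWSG1, was lower in 9 of 9 pairs, at -0.34. APCDD1, a membrane inhibitor of WNT signalling, had the highest difference of all members at 0.35. It read 1.31, 1.72 and 2.82 against 4.80, 3.70 and 3.74 CPM untreated, 1.60, 1.83 and 2.74 against 2.96, 3.23 and 2.64 CPM in DMSO and 1.48, 1.94 and 3.21 against 1.80, 2.34 and 2.11 CPM in triptolide, control first. The lines were apart only in untreated cells, with knockdown above control. LDLRAD4, a membrane inhibitor of TGF-beta signalling, read 2.30, 3.36 and 2.49 against 2.51, 5.21 and 2.09 CPM untreated, 2.13, 3.70 and 2.29 against 2.53, 4.25 and 1.90 CPM in DMSO and 1.57, 2.08 and 0.952 against 1.44, 1.54 and 1.502 CPM in triptolide. It overlapped in each treatment. DLGAP1, a postsynaptic scaffold, read 2.87, 5.04 and 2.77 against 4.43, 5.71 and 4.25 CPM untreated, 3.09, 3.73 and 3.13 against 2.77, 6.02 and 3.75 CPM in DMSO and 1.78, 1.16 and 2.76 against 1.26, 2.62 and 2.97 CPM in triptolide. It overlapped too, with a median difference of 0.23 and 2 of 9 pairs lower. COLEC12, MYOM1 and CLUL1, the other members of these groups that were kept, are described with triptolide.

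Protein partners of members encoded on other chromosomes were the tested side of the comparison between lines, because the rule did not use them. Their lists were still made with earlier results of these data known. Of 81 partners listed from knowledge of the complexes, 81 were tested. EdgeR's quasi-likelihood test called 0 of them in any of the 3 treatments, with or without the replicate block, and DESeq2 also called 0. Over all genes the same test called 0.0987% in untreated cells, 0.094% in DMSO and 0.0658% in triptolide, and 0.578%, 0.606% and 0.644% with the block. With shares this low, 0 calls among 81 genes cannot tell the partners from other genes. Unadjusted p-values below 0.05 numbered 1, 1 and 3 in untreated cells, DMSO and triptolide, and 6, 4 and 9 with the block. Over all genes the shares with such a p were 2.67%, 2.38% and 3.02%, and 7.13%, 7.16% and 8.32% with the block, so the partner counts lie near the background. The partner medians were -0.05, 0.05 and 0.02. Over 9 pairs, 2 partners were lower in every pair and 1 was higher in every pair.

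For NDC80, the partners NUF2, SPC24 and SPC25 differed by -0.05, -0.11 and 0.01 as medians of 9 pairs. The 5 other THO subunits ranged from -0.14 to 0.11 beside -0.82 for THOC1. The 9 complex I partners of NDUFV2 had a median of 0.07, and the lowest, NDUFS6 on 5p, was lower in 9 of 9 pairs at -0.45. The 9 Y complex partners of SEH1L ranged from -0.08 to 0.19, and the 6 myosin partners of MYL12A from -0.001 to 0.60. Among SRC family kinases, FYN was lower in 9 of 9 pairs at -0.34 and LYN higher in 9 of 9 at 0.31, both near 2 CPM. STIL, a centriole duplication factor listed beside CEP192, had the lowest value of all partners at -1.001, lower in 8 of 9 pairs. Its edgeR adjusted p was 1 in each treatment, and 0.311, 0.298 and 0.143 with the block.

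The contrast of triptolide against DMSO did not choose the members, but its libraries also enter the contrasts that did. Triptolide lowered more members than it raised. In the control line edgeR's quasi-likelihood test called 22 of 43, 16 lower and 6 higher, where 16% of all genes were called lower and 14.9% higher. In the knockdown line it called 24, 17 lower and 7 higher, beside 18.9% and 16.7% of all genes. Of 14704 protein-coding genes tested, it called 2819 lower and 2023 higher in the control line. In the knockdown line it called 3343 of them lower and 2374 higher. Both lines shared 15 lower and 6 higher members, 4 were called in 1 line, 18 in neither and 0 in opposite directions. COLEC12 and MYOM1, among the 6, passed the low-count filter through triptolide libraries alone, so their direction was fixed by the filter. Of the 40 members of at least 1 CPM, which leave them out, 16 were called lower and 4 higher in the control line, and 17 and 4 in the knockdown line. The member medians were -0.45 and -0.54, against 0.03 and 0.04 over all genes and -0.03 and -0.04 over protein-coding genes. The lines share no library in these comparisons. Triptolide libraries also held more mitochondrial ribosomal RNA, as given above, and scaling by library totals alone moved the median of all genes to -0.60 and -0.67. On that scale 25 members were called lower and 2 higher in the control line, and 28 and 2 in the knockdown line, the 2 higher being COLEC12 and MYOM1. Relative to all genes, the member medians there were -0.50 and -0.59.

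Ranked by the smaller of the falls in the 2 lines, METTL4, MTCL1, NDC80, NDUFV2 and SMCHD1 came first, and their libraries are listed above. In the control line alone VAPA fell more than SMCHD1. In each of these 5, all 3 triptolide libraries lay below all 3 DMSO libraries in both lines. METTL4 fell by 2.69 in the control line (edgeR adjusted p = 2.31e-07) and fell by 3.10 in the knockdown line (adjusted p = 8.56e-08). NDC80, its divergent neighbour, fell by 1.75 (adjusted p = 4.12e-05) and fell by 2.27 (adjusted p = 3.52e-06). For MTCL1 the edgeR changes were -1.96 (adjusted p = 6.11e-05) and -2.36 (adjusted p = 1.24e-05). NDUFV2 changed by -1.59 (edgeR adjusted p = 0.00194) and -1.84 (adjusted p = 0.000905). SMCHD1 changed by -1.46 (edgeR adjusted p = 0.000429) and -1.52 (adjusted p = 0.000262). The 10 other members called lower in both lines were THOC1, PPP4R1, VAPA, NAPG, AFG3L2, SPIRE1, PSMG2, PTPN2, CEP192 and RNMT, with changes from -1.50 for VAPA to -0.45 for AFG3L2 in the control line. THOC1, PPP4R1, VAPA, PSMG2 and CEP192 stayed called in both lines in each of 7 other settings and without any 1 of the 6 libraries compared. In the control line AFG3L2, SPIRE1 and NAPG lay near the threshold, with edgeR adjusted p of 0.0488, 0.0467 and 0.0371, and lost the call with relative log expression scaling (0.0958, 0.0744 and 0.0657). Without single control libraries their adjusted p rose up to 0.188, 0.193 and 0.147, each without control triptolide replicate 1. For PTPN2 the adjusted p reached 0.0881 without that same library, and for RNMT 0.141 without control DMSO replicate 2. In the knockdown line AFG3L2 and SPIRE1 lost their calls without knockdown triptolide replicate 1 (edgeR adjusted p 0.057 and 0.131), and SPIRE1 also without knockdown triptolide replicate 2 or knockdown DMSO replicate 2 or 3, while NAPG, PTPN2 and RNMT stayed called without any 1 library.

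**Figure D5:**
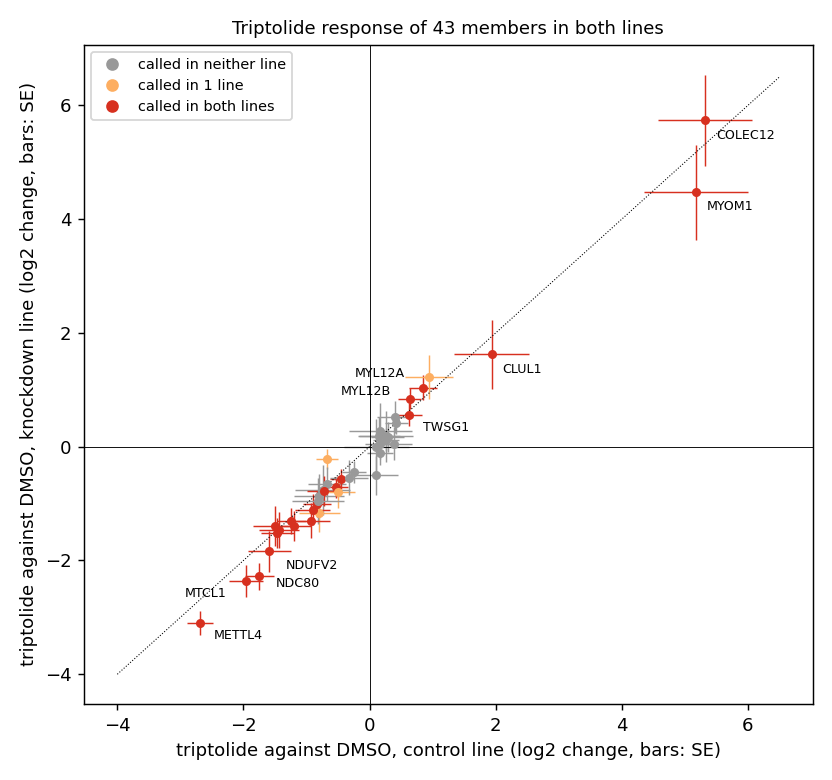
Log2 change of triptolide against DMSO for the 43 members, in the control line on the horizontal and in the knockdown line on the vertical axis; bars are SE, the dotted line marks equal change and colour the number of lines with a call. Points follow the dotted line from METTL4, at -2.69 and -3.10, to COLEC12, at 5.32 and 5.74. COLEC12 and MYOM1 passed the filter through triptolide libraries alone, so their colour and bars are no test.

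COLEC12 and MYOM1 were nearly silent without the drug. COLEC12, a scavenger receptor of the collectin family, had 0 counts in the 6 untreated libraries. It held 4 counts over the 3 DMSO and 108 over the 3 triptolide libraries of the control line, a ratio of 44.3 (95% exact interval 16.8 to 166). In the knockdown line 2 counts stood against 82, a ratio of 64.7 (17.4 to 544). These intervals cover counting error only, and since the filter fixed the direction they are no test of a rise. In CPM the triptolide libraries read 1.52, 2.08 and 1.45 in control and 1.85, 0.748 and 0.894 in knockdown cells, above every other library of the gene. MYOM1, the myomesin of the muscle M band, read 0.048, 0.061 and 0.161 CPM in DMSO and 3.56, 4.16 and 2.16 CPM in triptolide in the control line. In the knockdown line it went from 0.024, 0.138 and 0.028 to 1.53, 1.68 and 1.22 CPM. Untreated cells held 0.131, 0.605 and 0.221 CPM in control and 0.085, 0.317 and 0 CPM in knockdown. No p is given for COLEC12 and MYOM1, since only their triptolide libraries carried them past the filter. CLUL1, a clusterin-like protein of the retina, read 0.670, 1.68 and 0.613 CPM in DMSO and 2.88, 6.29 and 2.21 CPM in triptolide control cells. In knockdown cells it went from 0.433, 1.24 and 0.596 to 1.58, 3.83 and 1.61 CPM, and untreated libraries held 0.574, 1.51 and 0.968 in control and 0.311, 0.951 and 0.329 CPM in knockdown cells. Its edgeR adjusted p was 0.0199 and 0.0432. The call was lost without control DMSO replicate 1 or 3 or control triptolide replicate 2 (adjusted p 0.0786, 0.0842 and 0.115), and without the same replicates of the knockdown line (0.148, 0.126 and 0.22).

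Abundant members also rose. MYL12A changed by 0.85 ± 0.22 (SE) in the control line (edgeR adjusted p = 0.00691) and 1.04 ± 0.22 in the knockdown line (adjusted p = 0.00148). MYL12B changed by 0.63 ± 0.18 (edgeR adjusted p = 0.0129) and 0.85 ± 0.18 (adjusted p = 0.00165). Scaled by library totals alone, MYL12A stood at 0.21 and 0.34 and MYL12B at 0.0039 and 0.14, with no call. Without control DMSO replicate 1, MYL12B changed by 0.55 with an edgeR adjusted p of 0.0657, and without the low-count filter by 0.51 with 0.172. TWSG1 changed by 0.62 and 0.56 (edgeR adjusted p = 0.0257 and 0.0373), but on library totals alone it turned to -0.01 and -0.15. Leaving out single libraries also ended its call, with adjusted p up to 0.118 in the control line without control triptolide replicate 2 and up to 0.136 in the knockdown line without knockdown triptolide replicate 2. By role, the RNA and chromatin members had the lowest medians, -0.93 and -1.30, with 4 and 5 of 7 called lower. Cell division followed at -0.67 and -0.91, with 2 and 3 of 4 called lower, CEP76 being called in the knockdown line alone at -0.80. Signalling and trafficking had 4 of 10 called lower in each line, with YES1 at 0.17 and -0.11 and not called. Over all genes, 16% were called lower in the control line and 18.9% in the knockdown line. The role groups are small, and whether they differ was not tested. ENOSF1 was called in the control line alone, at -0.67 against -0.22, ZBTB14 in the knockdown line alone, at -1.17 against -0.80, and GNAL likewise, at 1.23 against 0.94. With the replicate block, ZBTB14, GNAL and CEP76 were called in the control line too (edgeR adjusted p = 7.79e-05, 0.0342 and 0.0401). ENOSF1 was still not called in the knockdown line (edgeR adjusted p = 0.219).

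The difference between the 2 triptolide responses was tested as an interaction, which shares its libraries with the contrasts that chose the members. EdgeR's quasi-likelihood test called 0 members, with 0 at an unadjusted p below 0.05, and 0% of all genes. With the block the counts were 0 called and 3 at an unadjusted p below 0.05, and DESeq2 called 0. The calls made in 1 line only are therefore not shown to differ between lines. The median interaction over members was -0.12, against -0.02 over all genes.

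DMSO against untreated gave 0 called members in the control line and 0 in the knockdown line by edgeR's quasi-likelihood test, DESeq2 and the blocked fit, where 0% of all genes were called in each line. Unadjusted p-values below 0.05 numbered 2 in the control line (COLEC12 and MYOM1) and 3 in the knockdown line (USP14, TYMS and NDUFV2). The first pair lies near 0 counts in these libraries, and USP14 and TYMS involve the untreated knockdown replicate described above. The 5 genes outside the arm whose 9 pair differences were most like the member mean, among 14228 searched, were INTS2, UGP2, SNX25, WASHC4 and SKIL, with r from 0.94 to 0.96 over 9 pairs that share their libraries with the members. Their own median differences ranged from -0.29 for SKIL to 0.001 for INTS2. The search picked the highest r among 14228 genes, so these r values are descriptions and were not tested.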

How the data were processed

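RNA-seq of 18 ZR-75-1 libraries in 6 groups of 3 was used, grouped by the labels. Values are unnormalized counts, 1 deposited file a library. The submitters' processing notes name STAR 2.4.2a, HTSeq 0.6.1, DESeq2 1.4.5, R 3.1 and the build hg19, and the series text says that the authors used STAR to align and HTSeq to count. Whether counting used strand is not given in the sources used here. Tallies of reads given to no gene (24.9 to 35.4% of the reads counted) were left out. Of 60252 IDs, 58821 (97.6%) matched GENCODE 44 mapped to GRCh37, which gave symbols and positions. No other columns of sample values were present.

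The test was edgeR 4.0.16 (TMM scaling, quasi-likelihood, two-sided) in R 4.3.3, with 1 fit of 18 libraries, 12 residual degrees of freedom (10 with the block) and Benjamini-Hochberg adjustment over 21285 genes. SE is the log2 change over the root of its F statistic. Pair differences used a pseudocount of 0.5 CPM. With 26709657 to 35674502 gene counts a library, 3 counts (the limit a count of 0 allows) correspond to 0.0841 to 0.112 CPM. No library copied another (lowest chi-square per degree of freedom 53.4). The fit was tested on simulated data.

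Replicate numbers pair the libraries: residuals of same-numbered libraries correlated at 0.40 to 0.81 (45 pairs), others at -0.63 to -0.015 (90 pairs), and 18 of 18 matched their own number. The members and gene lists were chosen with earlier results of these data known. Genes named in full were the 8 lowest and 4 highest members of at least 1 CPM by median pair difference, the neighbours MYL12A, MYL12B, TYMS and ENOSF1, up to 5 members with the largest fall and 5 with the largest rise called in both lines, the 5 most abundant other 18p genes (1 is not reported here), and the 5 genes most like the member mean; SMCHD1, TWSG1, USP14 and others outside this rule were named for their role or after their values were seen. Alternatives were DESeq2 1.42.0, relative log expression scaling, library totals alone, TMM without chromosome 18 and mitochondrial genes, no low-count filter, only the libraries compared, members of at least 1 CPM, the block, and each library left out.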

Additional observations from a re-analysis of the deposited data

Results flagged for a closer look

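One result was flagged by a rule run over the 43 members kept: all 3 pairs of one line went one way and all 3 of the other line the opposite way. With 3 pairs a line and this many members, such a pattern can arise by chance, and how often was not worked out. From untreated to DMSO, YES1, the SRC family kinase, had a median pair change of -0.17 in the control line and 0.10 in the knockdown line, in log2(CPM + 0.5), at a mean level of 195 CPM. The difference between these changes was not tested. For each library, genes more than 2-fold from their group were counted among 10521 genes of at least 5 CPM. Control untreated replicates 1 and 2 had the most, 1029 and 1156, where replicate 3 had 173. Knockdown untreated replicate 1 had 426, and the remaining libraries ranged from 188 to 872. Beyond this count, groups of 3 were not searched for single outlying libraries.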

How the results depend on the processing

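Between the lines, the contrast that chose the members, counts of members past the threshold are given only to show how far the settings move them, and nothing is read from them. In untreated cells a count of 2 became 7 with DESeq2, 4 without the low-count filter, 0 with only the libraries compared and 15 with the replicate block. In DMSO the count of 1 became 3, 2, 0 and 10 in that order, and 0 with relative log expression scaling or library totals alone. In triptolide 1 became 5, 2, 0 and 10. With 1 library left out, each of these counts ranged from 0 to 1. The cause was not tested, beyond the fewer libraries in the fits that leave some out. The median member difference kept its sign in every setting run: with 1 library left out it ranged from -0.631 to -0.443 in untreated cells, -0.541 to -0.331 in DMSO and -0.657 to -0.399 in triptolide, and DMSO gave -0.26 with library totals alone. The median triptolide change, -0.45 and -0.54, became -1.09 and -1.26 with library totals alone, where all genes moved too, and ranged from -0.565 to -0.338 and -0.672 to -0.428 with 1 library left out. Called members under triptolide ranged from 16 to 21 and from 18 to 25 without 1 library, and stayed within 1.5 times the main count in the other settings run; the replicate block gave 32 and 31. Of the 15 members lower in both lines, followed by name after the data were seen, 11 to 15 stayed called in both over 7 settings, the fewest with only the libraries compared. TWSG1 turned to -0.01 and -0.15 with library totals alone. The block changed no call of 0 among members in the interaction or in DMSO against untreated, nor among partners.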

Other observations

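The triptolide values of the other genes of 18p, mostly noncoding RNAs and pseudogenes, are given beside those of the listed members. Of 20 such genes of at least 1 CPM, edgeR's quasi-likelihood test called 5 higher and 2 lower in the control line, and 5 higher and 0 lower in the knockdown line, with medians of 0.56 and 0.35. The 40 members of at least 1 CPM had 4 higher and 16 lower, and 4 higher and 17 lower, with medians of -0.52 and -0.61. The 139 genes of 18q at that level had 11 higher and 35 lower, and 13 higher and 42 lower, with medians of -0.17 and -0.19. Over all genes tested, 14.9% were called higher and 16% lower in the control line, and 16.7% and 18.9% in the knockdown line. Whether these sets differ was not tested.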
